A study of Mus musculus with 10 samples.

Results

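Disease-associated microglia (DAM) were taken as the cells that the study's annotation of microglia calls DAM, which gave 901 of 40547 microglia and of 45472 CD45+ brain cells in all. They were sequenced in 10 droplet-based single-cell libraries, 1 per genotype and age, each made from the pooled brains of 3 mice, 2 males and 1 female. WT and Nlrp3KO mice (NLRP3.KO in the labels, a deletion in every cell of the body) were profiled at 3, 6 and 9 months. APP/PS1 mice, which overexpress mutant APP and mutant human PS1 in neurons of the central nervous system and deposit amyloid, and Nlrp3KO APP/PS1 mice were profiled at 3 and 9 months. CD45+ cells were sorted from whole brain with actinomycin D in the buffers, and the groups were littermates. The study asked whether Nlrp3 shapes microglial activation, in the healthy brain and beside amyloid. The 6 libraries without the transgenes are called non-diseased here. Since an age is also 1 batch, age and batch cannot be told apart, and with 1 library per group every test below compares pairs of libraries.

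Microglia are the resident macrophages of the brain. In mice with amyloid, those that gather at plaques lower part of their homeostatic programme and raise genes for lipid handling, lysosomal degradation and phagocytosis, a change that passes through a first step without Trem2 and a later one that needs this lipid-sensing receptor. The annotation also holds homeostatic microglia (HM) and, by name an intermediate, transitory microglia (TM). DAM is marked here by Cst7, which encodes the endosomal protease inhibitor cystatin F, Lpl (lipoprotein lipase), Apoe (a lipid carrier), Itgax (the integrin CD11c) and Cd74 (the invariant chain of MHC class II). On GRCm38 the annotation places Cst7 at chr2:150570415-150578944 (plus strand), Lpl at chr8:68880491-68907448 (plus), Apoe at chr7:19696109-19699188 (minus) and Itgax at chr7:128129547-128150657 (plus), all protein-coding.

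In the library order WT, Nlrp3KO, APP/PS1 and Nlrp3KO APP/PS1, there were 31, 37, 24 and 83 DAM at 3 months and 55, 102, 253 and 202 at 9 months. The WT and Nlrp3KO libraries of 6 months had 55 and 59. As a share of the microglia of a library these were 0.431%, 0.622%, 0.778% and 1.01% at 3 months, 1.57% and 1.61% at 6 months and 2.34%, 3.79%, 11.7% and 11.5% at 9 months. The 4 APP/PS1 libraries thus held 562 DAM and the 6 non-diseased ones 339. The summed DAM of a library held between 160958 and 1659976 UMIs, and the median DAM had 5726 UMIs against 4970 in TM and 4366 in HM. A doublet score over 0.5 was given to 14.4% of DAM, 10.1% of TM and 6.35% of HM. Of 45225 distinct barcodes 246 occurred in more than 1 library, and 11 of these were DAM. The WT library of 9 months stood apart: in its HM, 213 of 8190 genes were over 2-fold below the median of the other 9 libraries, against 1 to 58 genes in the others. The series also has an annotation of all CD45+ cells, and 788 of the 901 DAM (87.5%) were DAM there too. This held for only 19 of 59 in Nlrp3KO and for 34 of 55 in WT at 6 months. In the other direction the overlap was smaller. Of the microglia that were DAM there, 55.6% were DAM here, 25.1% were in the immediate early gene state, 9.18% were HM and 8.40% TM.

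DAM carried microglial markers. P2ry12, a purinergic receptor of homeostatic microglia, had at least 1 UMI in 89.3% of DAM after every cell was thinned to 1500 UMIs, against 98.4% of HM and 4.94% of T cells. Border macrophage markers summed to between 0 and 55.9 UMIs per 1e6 UMIs of the summed cells (CPM) over the 10 libraries, with Lyve1 at 0 in all of them, against 3.86 to 8.55 in HM. The medians were 10.9 CPM in the non-diseased and 20.3 CPM in the APP/PS1 DAM, above 6.35 and 6.64 in HM. Monocyte markers summed to between 8.24 and 55.4 CPM, against 7.38 to 15.6 in HM, with medians of 23.8 and 32.5 CPM in DAM above 8.99 and 10.4 in HM. The part of either list in the comparison of DAM with HM was not tested. Neutrophil markers summed to between 0 and 49.4 CPM, with Ly6g and Retnlg at 0, and lymphocyte markers to between 13.6 and 69.2 CPM, with Cd79a and Ms4a1 at 0. Oligodendrocyte markers summed to between 69.9 and 180 CPM with Mog at 0, dendritic cell markers to between 0 and 6.59 CPM with Ccr7 at 0, and neuron markers to between 0 and 10.3 CPM with Syt1 and Stmn2 at 0. The dendritic cell list was measured for 6 of its 8 members. Astrocyte markers summed to between 97.2 and 304 CPM with Gfap, Aqp4 and Clu at 0, and in HM to between 179 and 237. Endothelial markers summed to between 454 and 916 CPM with Cldn5 and Ly6c1 at 0, against 547 to 615 in HM. In DAM the endothelial sum was 454 to 888 CPM in the non-diseased and 904 to 916 CPM in the APP/PS1 libraries, and the astrocyte sum 162 to 304 and 97.2 to 178 CPM. Of the endothelial list, Bsg was found in 64.4% of thinned DAM, against 4.66% for Pecam1, 2.11% for Flt1 and 0.111% for Itm2a. Of the astrocyte list, Slc1a3 was found in 24.3%, against 0.111% each for Slc1a2 and Aldoc. In the test of amyloid below, the log2 fold change was 0.59 for Bsg, -1.18 for Pecam1 and -0.55 for Slc1a3. The part of either list in the amyloid results below was not tested.

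By summed CPM all 5 markers were higher in DAM than in HM in every one of the 10 libraries. This is a description with no test, because the same genes went into the clustering. For Lpl and Itgax the sign rested on very few UMIs in some libraries. DAM of WT at 9 months held 2 UMIs of each. Itgax had 3 UMIs in Nlrp3KO DAM of 3 months and 4 in those of 9 months. After thinning, Lpl was found in 0% of DAM and 0.67% of HM in WT of 9 months, and in 0.98% and 1.19% in Nlrp3KO of that age. Itgax was found in 0% of DAM and 0.32% of HM in Nlrp3KO of 3 months. In all other cases the share was larger in DAM. The median over libraries of the log2 ratio of (CPM + 5) was 4.85 for Cd74, 3.57 for Apoe and 3.35 for Cst7. The MHC class II genes H2-Aa (4.46), H2-Eb1 (4.07) and H2-Ab1 (3.91) were among the 10 largest median ratios, as were Spp1 (osteopontin, 4.18), the cytochrome oxidase subunit Cox6a2 (3.35), the receptor tyrosine kinase Axl (2.95) and the interferon-inducible Ifi27l2a (2.88). Over all 8135 genes described, 46 (0.565%) were higher with a median above 1 and the same sign in 10 of 10 libraries, and 39 (0.479%) were lower by the same rule. Among the lowest ratios were those of the glycosyltransferase Ggta1 (-1.93), Tmem44 (-1.69), the sialic acid receptor Siglece (-1.54), Tspan18 (-1.49), Fam110a (-1.44), the kinase Abl1 (-1.39), Lrrc25 (-1.34), Cass4 (-1.33) and the iron exporter Slc40a1 (-1.33). Of 20 homeostatic microglia genes 1 was lower by this rule, and their median ratio was -0.26 beside -0.20 over all genes.

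By the same rule fewer genes set DAM apart from TM, and 3 MHC class II genes had the largest ratios. Of 7957 genes 18 (0.226%) were higher and 11 (0.138%) lower in DAM than in TM. H2-Aa (median log2 ratio 4.18), H2-Eb1 (3.84), H2-Ab1 (3.71), Spp1 (3.46), Cd74 (2.80), Cox6a2 (2.58), the chemokine Ccl6 (2.16), the pyrophosphate transporter Ank (2.02), Ly6a (2.01) and Cst7 (1.91) led. Among the smallest ratios were those of the chemokine Ccl5 (-2.26), the transcription factor Klf2 (-2.17), Emp3 (-1.75), Igsf6 (-1.58), Arhgap15 (-1.56), the inhibitory receptor Pirb (-1.43), Lrrc25 (-1.33), Gm26740 (-1.12) and Lst1 (-1.02). The 20 homeostatic microglia genes had a median ratio of 0.23 in DAM over TM, beside -0.02 over all genes. Of the 5 markers, Cd74 and Cst7 met the rule, while Apoe, Lpl and Itgax did not. Apoe and Lpl were each lower in DAM than in TM in 4 of the 6 non-diseased libraries and higher in 4 of 4 APP/PS1 libraries.

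What was called DAM differed between the genetic backgrounds, as the plot of the 5 markers by library shows. Cst7 in DAM was at 112, 108, 142, 74.0, 205 and 81.8 CPM in WT and Nlrp3KO of 3, 6 and 9 months, taken in that order. It was at 848 and 2637 CPM in APP/PS1 and Nlrp3KO APP/PS1 of 3 months and at 1602 and 2785 at 9 months. All 4 APP/PS1 values thus lay above all 6 others. Lpl was at 37.3, 39.2, 29.7, 96.7, 6.83 and 15.2 CPM in the non-diseased libraries and at 611, 784, 348 and 354 CPM in the APP/PS1 ones, again without overlap.

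**Figure D1:**
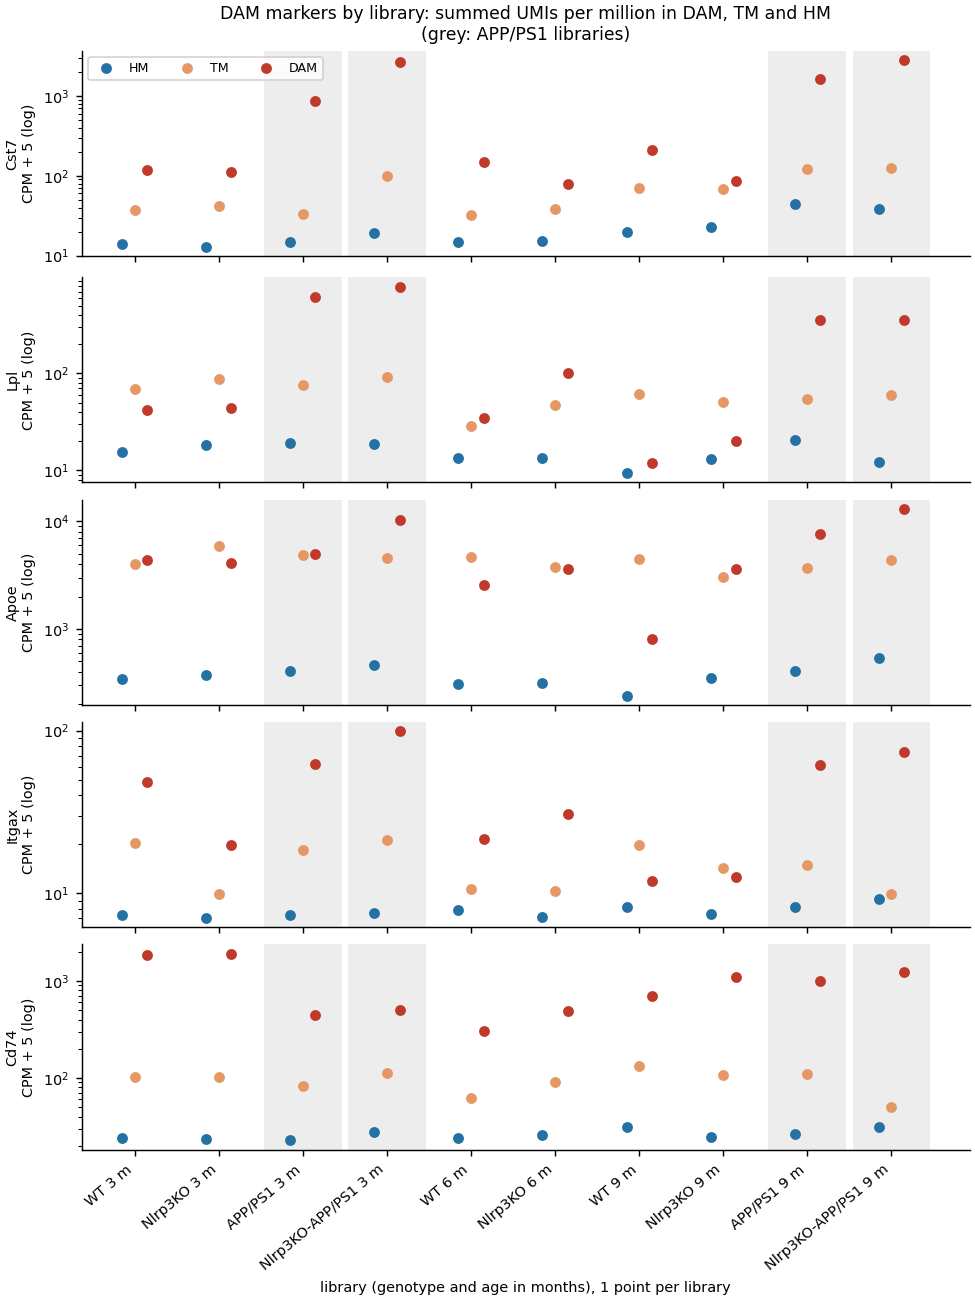
Summed CPM plus 5 (log axis) of the 5 markers in DAM, TM and HM, with 1 point per library and no error bar; grey columns are APP/PS1 libraries. Cst7 and Lpl in DAM lie between 6.83 and 205 CPM in the non-diseased libraries and between 348 and 2785 CPM in the APP/PS1 libraries, while Cd74 in DAM is highest at 3 months without amyloid.

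Apoe was at 4392, 4092, 2551, 3605, 803 and 3629 CPM in the non-diseased DAM, and at 4943, 10214, 7530 and 12968 CPM in the APP/PS1 DAM. The groups did not overlap, but APP/PS1 of 3 months was close to WT of 3 months, and the lowest value came from the WT library of 9 months that stood apart. In Nlrp3KO of 9 months 1 of 102 DAM held 1136 of the 1907 Apoe UMIs. Itgax was at 43.5, 14.7, 16.5, 25.6, 6.83 and 7.61 CPM and at 57.1, 93.9, 56.6 and 68.5 CPM. In APP/PS1 of 3 months 1 cell held 8 of its 13 UMIs. Cd74 went another way, with 1839, 1897, 297, 489, 687 and 1098 CPM in the non-diseased and 439, 491, 986 and 1231 CPM in the APP/PS1 libraries. Its groups overlapped, and its 2 highest values were those of the non-diseased libraries of 3 months.

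For Cst7 and Lpl the same difference was seen cell by cell. After thinning to 1500 UMIs, Cst7 was found in between 10.2% and 18.2% of DAM of the non-diseased libraries and in between 40.7% and 72.3% of DAM of the APP/PS1 libraries. Over all libraries it was found in 36.8% of DAM (51.2% unthinned), 6.07% of TM, 1.73% of HM and 0.375% of B cells, whose median depth was 4671 UMIs. B cells were the only type outside microglia compared for Cst7 in this way, so that value does not speak for other CD45+ cells. Lpl was found in at most 8.47% of DAM in the non-diseased and in 16.7% to 45.8% in the APP/PS1 libraries. The groups overlapped for Apoe, found in 24.5% to 50.8% of DAM in the non-diseased and in 50.0% to 77.1% in the APP/PS1 libraries. They overlapped for Itgax too, at 0% to 6.45% and at 4.17% to 14.5%. Cd74 was found in 58.1% and 81.1% of the WT and Nlrp3KO DAM of 3 months and in 16.7% to 43.1% of all other DAM. At least 3 of the 5 markers were seen in 193 of 901 DAM (21.4%), in 1.58% of TM and in 0.0908% of HM. By library that share was between 1.96% and 9.68% without amyloid and 12.5%, 44.6%, 25.7% and 36.6% in the 4 APP/PS1 libraries, while 230 DAM (25.5%) had none of the 5. The median DAM had 1 Apoe UMI after thinning and the fullest had 232.

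**Figure D2:**
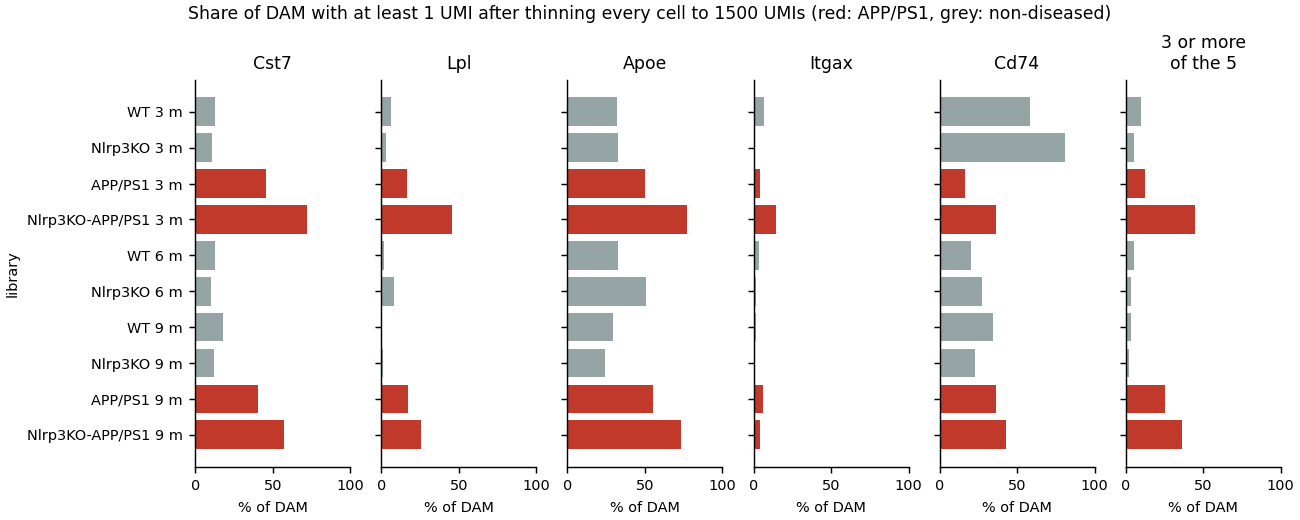
Percent of DAM (horizontal axis, 0 to 100) with at least 1 UMI of each marker, and of 3 or more of the 5, in each library after thinning every cell to 1500 UMIs; bars carry no error. Cst7 reaches 40.7% to 72.3% in the red APP/PS1 bars and at most 18.2% in the grey non-diseased ones, and Cd74 is highest in the 2 grey bars of 3 months.

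Set against HM of the same libraries, DAM of the non-diseased libraries were led by Cd74 (median log2 ratio 4.98), H2-Aa (4.46), H2-Eb1 (4.19), H2-Ab1 (4.17), Spp1 (3.83), Apoe (3.42) and Cst7 (3.09), with the complement gene C4b (2.63) and the MHC class I gene H2-Q7 (2.51) further down. DAM of the APP/PS1 libraries were led by Cst7 (6.02), Lpl (4.95), Cd74 (4.76), the fatty acid binding protein Fabp5 (4.76), Spp1 (4.68) and H2-Aa (4.63), with the chemokines Ccl4 (4.61) and Ccl3 (4.42) further down. Of 8135 genes, 52 were higher by the same rule in the 6 non-diseased and 138 in the 4 APP/PS1 libraries, with 34 in both. Lower by that rule were 24 and 237 genes, with 11 in both, so in the APP/PS1 libraries more genes were lower than higher. The gene names here were chosen after the values were seen. The rule asks for the same sign in 6 libraries in one case and in 4 in the other, so the counts are not on a par. Late DAM genes had a median ratio of 2.94 in the APP/PS1 and of 0.80 in the non-diseased libraries. For MHC class II genes it was 3.59 and 4.18.

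Spp1 rested on very few cells in the non-diseased libraries and in APP/PS1 of 3 months. In Nlrp3KO DAM of 3 months it had 153 UMIs, of which 149 came from 1 cell, and in Nlrp3KO of 9 months all 60 came from 1 cell. In APP/PS1 of 3 months 36 of 40 came from 1 cell. In Nlrp3KO APP/PS1 of 3 months it was found in 17 of 83 DAM, and the fullest cell held 17 of 63 UMIs. In APP/PS1 and Nlrp3KO APP/PS1 of 9 months it was found in 31 of 253 and 33 of 202 DAM. In the non-diseased libraries it was found in 1 to 3 DAM each.

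To test amyloid within DAM, the 4 APP/PS1 libraries were each set against the age-matched non-diseased library with the same Nlrp3 status in edgeR's quasi-likelihood test. Of 5293 genes that passed the filter on low counts, 124 (2.34%) rose and 19 (0.359%) fell at an adjusted p under 0.05 and a log2 fold change beyond 1, while DESeq2 called 64. Fewer were also called with the annotation of all CD45+ cells, as given in the last section. Lpl rose by 4.66 ± 0.23 on the log2 scale (SE, adjusted p = 2.55e-11, edgeR) and Cst7 by 4.11 ± 0.28 (adjusted p = 2.85e-09, edgeR), both in 4 of 4 pairs. Itgax rose by 2.47 ± 0.37 (adjusted p = 0.000202, edgeR) and Apoe by 1.77 ± 0.28 (adjusted p = 0.00032, edgeR), also in 4 of 4 pairs. Without the pair that holds the WT library of 9 months the value of Apoe was 1.31 (adjusted p = 0.00142), and with the annotation of all CD45+ cells Apoe (0.75) and Itgax (0.84) no longer passed. Cd74 did not pass (-0.62, adjusted p = 0.25, edgeR). A rise or fall, here and below, compares the summed cells that bear the label DAM in each library. Of these cells 1.96% to 9.68% held 3 or more of the 5 markers without amyloid and 12.5% to 44.6% with it. A change within the cells and another mix of cells under the label cannot be told apart here.

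Quality measures of DAM moved with amyloid in 4 of 4 pairs. In the non-diseased DAM of these pairs 2.70% to 10.9% of cells had a doublet score over 0.5, against 12.6% to 22.8% in the APP/PS1 DAM. The median UMIs per cell were 4691 to 5397 against 6185 to 8018.5. The median percent of ribosomal UMIs was 8.24 to 11.7 against 11.7 to 13.7. Without cells of a doublet score over 0.5, 102 genes rose and 14 fell, and 108 of these 116 were among the 143 called with them. Lpl then rose by 4.36, Cst7 by 4.11, Itgax by 2.53 and Apoe by 1.61. The part of depth and of the ribosomal share in the rise was not tested.

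The oxysterol-producing enzyme Ch25h had 0 UMIs in the 4 non-diseased libraries of these pairs and 353 in the 4 APP/PS1 libraries. At 3 UMIs over the non-diseased group as the floor, it was at least 35.1-fold higher. Its levels were 110 CPM in APP/PS1 and 84.0 in Nlrp3KO APP/PS1 at 3 months, and 72.9 and 105.7 at 9 months, and the 6-month libraries held 1 UMI. In APP/PS1 of 3 months 14 of 25 UMIs came from 1 cell. The membrane-shaping protein gene Baiap2l2 was at 54.2 to 115 CPM in the APP/PS1 libraries and at no more than 4.90 CPM in the others. Ccl4 and Ccl3, neighbouring chemokine genes on chromosome 11, rose by 5.13 and 3.70. Ccl4 was at 782, 506, 254 and 171.5 CPM in the APP/PS1 libraries and at 4.90 to 42.7 CPM in the others. In APP/PS1 of 3 months 1 of 24 DAM held 141 of its 178 UMIs, whereas in Nlrp3KO APP/PS1 of 3 months 30 of 83 cells carried it. Gm1673 (4.05), the growth factor Igf1 (3.36) and Fabp5 (3.19) completed the genes that led the rise. In APP/PS1 of 3 months Igf1 (26.4 CPM) and Fabp5 (13.2 CPM) lay within the non-diseased range, and Gm1673 (39.5 CPM) just above its highest value of 34.3 CPM. Gbp2, a guanylate-binding protein induced by interferon gamma, fell by 2.95 ± 0.61 (adjusted p = 0.00352, edgeR), and by 1.26 (adjusted p = 0.0614) without the Nlrp3KO pair of 3 months.

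Of the 124 genes that rose, 115 were higher in 4 of 4 pairs, and 65 had all 4 APP/PS1 libraries above all 6 non-diseased ones. Among all 5293 tested genes 3.31% were so separated, and 4.59% had all 4 APP/PS1 libraries below. Of the 19 that fell, 15 did so in 4 of 4 pairs and 4 were separated. Both groups of genes were picked by a test on these same pairs, so the counts of pairs and of separated genes are in part set by that.

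Of 13 late DAM genes tested 9 rose and 0 fell by this rule, beside 2.34% and 0.359% of all tested genes. Their median log2 fold change was 1.45 beside -0.03 over all tested genes. Besides Cst7, Lpl, Itgax and Igf1 these were the receptor tyrosine kinase Axl (2.57), the microglial growth factor Csf1 (2.42), Ccl6 (1.45) and the tetraspanins Cd63 (1.10) and Cd9 (1.09). Trem2 itself rose less, by 0.75 (adjusted p = 0.00522, edgeR), from a range of 2823 to 4175 CPM to one of 4559 to 6258 CPM, and its signalling adaptor Tyrobp rose by 1.18. Of 8 early DAM genes 3 rose beyond 1, namely Apoe, Tyrobp and the lysozyme gene Lyz2 (1.71). Both lists hold genes chosen elsewhere for this cell state, so their direction is what their names say. In the non-diseased libraries of the pairs Igf1 had 0 to 8 UMIs each, Itgax 2 to 7 and Lpl 2 to 8. Members this low there passed the filter on low counts only through the APP/PS1 libraries and could hardly fall. The tallies of these and the following lists are in part set by that.

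Lipid and lysosomal genes rose in part. Of 22 lipid genes 15 were tested, with a median of 1.11, and 8 rose, beside the 2.34% of all tested genes that rose. These 8 were Lpl, Apoe, Fabp5, Ch25h, the cholesteryl ester hydrolase Nceh1 (2.29), the fatty acid synthesis enzyme Acaca (1.67), the lipoprotein receptor Scarb1 (1.46) and the sterol carrier Npc2 (1.11). In the non-diseased libraries of the pairs Ch25h had 0 UMIs, Lpl 2 to 8 and Fabp5 0 to 18 each. At least Ch25h, Lpl and Fabp5 passed the filter only through the APP/PS1 libraries and could hardly fall, so the tally is in part set by the filter. Nceh1, Acaca and Scarb1 were also low, and whether they passed only in this way was not examined. The cholesterol exporters Abca1 (0.01) and Abcg1 (0.34) and the droplet coat protein gene Plin2 (0.26) did not pass. Among 21 lysosome genes 7 rose beyond 1. They included the glucuronidase Gusb (1.71), at 525 to 835 CPM against 167 to 333, and the cathepsins Ctsz (1.45) and Ctsa (1.17). Ctsd (0.95) and Ctsb (0.88) passed the adjusted p only, while Ctss (0.03) did not pass. Of 16 receptors and adaptors 7 rose, among them Cd52 (1.39) and Cd68 (1.02).

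Glycolysis genes were a further group. Of 11 tested 6 rose, with a median of 1.01, beside 2.34% of all tested genes: Ldha (1.35), Pgk1 (1.24), Pkm (1.16), Tpi1 (1.15), Aldoa (1.12) and Pgam1 (1.01). Hif1a, the hypoxia-inducible factor, rose by 1.21 and was the only one beyond 1 of the 14 tested members of the transcription factor list. Atf3, a stress-induced transcription factor that the list does not hold, rose by 1.73. The lysosome regulator Mitf (0.37) and the lineage factor Spi1 (0.05) did not pass. Of 12 secreted factors 7 rose and 1 fell (0.359% of all tested genes fell), the monocyte chemoattractant Ccl12 (-1.93). Mif rose by 1.85, from 99.4 to 176 CPM without to 407 to 501 CPM with amyloid, and Cxcl16 by 1.28.

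Of 20 homeostatic genes tested 1 fell beyond 1, the lens crystallin gene Crybb1, which microglia express (-1.23), beside 0.359% of all tested genes. Tmem119 (-0.66), P2ry13 (-0.50), P2ry12 (-0.49), Cx3cr1 (-0.48) and the fructose transporter Slc2a5 (-0.54) passed the adjusted p only, and Fcrls passed upward (0.77). Tmem119 was at 1392 to 1838 CPM in non-diseased and at 618 to 1219 CPM in APP/PS1 DAM. Of 7 inflammasome and 2 NF-kB genes tested 0 were called, which at these shares over all genes tells nothing about lists of this size. Il1b was at 0 to 5.71 CPM without and at 4.39 to 21.4 CPM with amyloid and did not pass the filter, nor did 6 other members of the NF-kB list.

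Few genes were called in HM and TM of the same libraries. In HM 0 of 11553 genes (0%) were called by edgeR, with 512 at an unadjusted p under 0.05, and no other tool was run there. In TM 1 of 8339 (0.012%) was called. The difference itself was tested as DAM minus HM within each library. Of 11129 genes 173 (1.55%) rose more in DAM and 40 (0.359%) fell more, and DESeq2 called 73. Against TM, 149 of 9393 (1.59%) rose more and 36 (0.383%) fell more. Lpl differed by 4.47 ± 0.27, Cst7 by 3.31 ± 0.17, Itgax by 2.17 ± 0.51 and Apoe by 1.35 ± 0.11 on the log2 scale beyond the change in HM. The states are clusters made from the same genes, so a cell that raises these genes can be placed outside HM for that. A small difference in HM, and with it DAM minus HM, is thus in part set by the clustering. Without the pair that holds the WT library of 9 months Apoe differed by 0.98, and with the annotation of all CD45+ cells by 0.31, both short of the fold required. Itgax lost its call without either pair of 9 months and with the other annotation. In this fit the spread was fully shared between genes, which gives abundant genes very small p-values. For Apoe the adjusted p was 4.86e-29 in edgeR and 0.0452 in DESeq2. In HM, Cst7 was higher in 4 of 4 pairs without passing (0.79, adjusted p = 0.819, edgeR). In TM Cst7 (0.86, adjusted p = 0.00658, edgeR) and Fcrls (0.46, adjusted p = 0.0012, edgeR) passed the adjusted p but not the fold required. Among the largest differences by this fit were also Ctse, Tmem163, Bambi, Adamts1 and Gpr162, all at or below 57.1 CPM, and the interferon-induced Gbp4, which was at 118 CPM in Nlrp3KO of 3 months and at no more than 6.59 CPM elsewhere. Ctse and Tmem163 had 0 UMIs in all non-diseased DAM, so no fold is given. MHC class II genes H2-Aa (-1.31), H2-Ab1 (-1.16) and H2-Eb1 (-1.82) fell relative to HM. None of the 3 was called in the fit of DAM alone, where each was lower with APP/PS1 in both 3-month pairs and higher in both 9-month pairs. Spp1 also fell relative to HM (-1.52), and its non-diseased counts came from 1 to 3 cells a library.

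**Figure D3:**
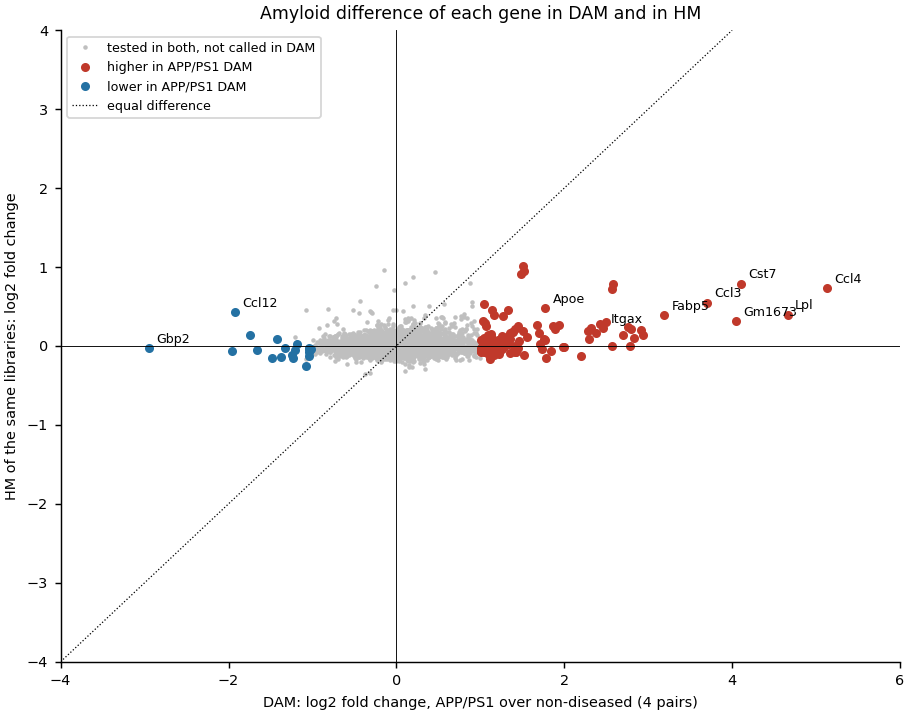
Log2 fold change between APP/PS1 and non-diseased libraries (4 pairs) of 5289 genes tested in both states, DAM on the horizontal and HM on the vertical axis, without error bars; coloured points were called in DAM. The 121 red genes have a median of 1.28 in DAM and of 0.06 in HM, and 1 of all 140 coloured genes exceeds 1 in HM. The coloured genes were picked by their difference in DAM, and the states were clustered from the same genes.

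The amyloid difference in DAM differed between 3 and 9 months for 4 of 6 MHC class II genes, 1 of 6 MHC class I genes and 3 of 10 interferon response genes. The interaction of amyloid and age was called for 21 of 6331 genes (0.332%) by edgeR, 20 of them with the more positive difference at 9 months, and for 6 by DESeq2. H2-Aa was at 491 and 456 CPM in WT and Nlrp3KO DAM of 3 months and at 110 and 102 CPM with APP/PS1. At 9 months the corresponding values were 106 and 207.5 without and 263 and 321 with APP/PS1, so the direction was opposite in both pairs of each age. The difference at 9 months exceeded that at 3 months by 3.01 ± 0.33 for H2-Aa, 3.44 ± 0.37 for H2-Eb1, 2.64 ± 0.30 for H2-Ab1 and 2.28 ± 0.28 for Cd74 (largest adjusted p = 7.37e-06, edgeR). Each age was a batch of its own, and the 3-month DAM numbered 24 to 83 per library.

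The interferon-associated Gbp2 (6.13), the peptide transporter Tap1 (2.83) and Ccl12 (2.69) were also called, and each was highest in Nlrp3KO DAM of 3 months. Gbp2 was at 691 CPM in that library, at 124 CPM in WT of 3 months and at no more than 29.7 CPM elsewhere. Ccl12 was at 2122 CPM there and at 659 CPM in WT of 3 months, where 1 cell held 80 of 106 UMIs. In the Nlrp3KO library these transcripts came from most cells: Ccl12 was found in 30 and Gbp2 in 28 of 37 DAM. Of 10 interferon response genes tested 3 were called, among them Ifitm3 (2.07) and Oasl2 (2.67), and the list's median was 1.45 beside 0.00 over all genes. Apoe (1.70) also passed, with the low value of the WT library of 9 months among its 8. Ccl6 was the only gene that went the other way (-1.39): it was at 255 and 417 CPM without and 1151 and 1636 CPM with amyloid at 3 months, and at 800 and 900 against 1337 and 1465 CPM at 9 months.

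**Figure D4:**
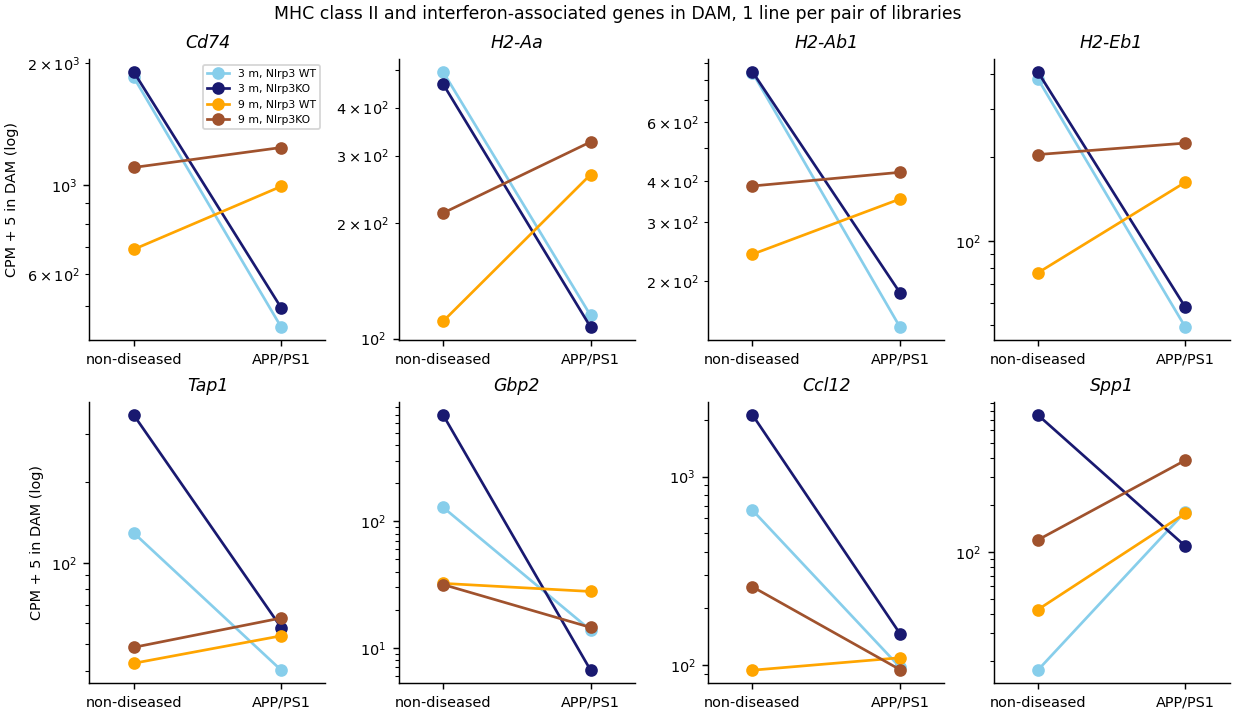
CPM plus 5 in DAM (log axis, scaled per gene) of MHC class II and interferon-associated genes and Spp1, with 1 line from the non-diseased to the APP/PS1 library of each of 4 pairs and no error bars. Cd74, H2-Aa, H2-Ab1 and H2-Eb1 are lower with APP/PS1 in both 3-month pairs and higher in both 9-month pairs, and Gbp2 starts from 691 CPM in Nlrp3KO of 3 months.

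Nlrp3 was checked first in its own knockout. DAM of the 5 Nlrp3KO libraries had 0 Nlrp3 UMIs, and those of the wild-type libraries 113, at 49.7, 42.8 and 47.8 CPM in WT of 3, 6 and 9 months and at 61.5 and 38.6 CPM in APP/PS1 of 3 and 9 months. This is at least a 45.1-fold lower level with 3 UMIs over the knockout group as the floor. Apart from Nlrp3, few genes were called in DAM. Over 5 pairs 5 of 4608 genes (0.109%) were called by edgeR, with 374 at an unadjusted p under 0.05, and 2 by DESeq2. Without 1 pair each the edgeR count was 3 to 13. The other called genes were the mitotic regulator Pttg1 (-2.37 ± 0.40, adjusted p = 0.0061, edgeR), the predicted gene Gm8797 (1.86 ± 0.35, adjusted p = 0.0167, edgeR), Gm1673 (1.35 ± 0.20, adjusted p = 0.00202, edgeR) and Fabp5 (1.45 ± 0.30, adjusted p = 0.0494, edgeR).

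Pttg1 was at 31.1, 59.3, 34.2, 39.5 and 39.8 CPM in the wild-type libraries (WT of 3, 6 and 9 months, APP/PS1 of 3 and 9 months) and at 0, 0, 24.7, 11.5 and 3.39 CPM in their knockout partners, lower in 5 of 5 pairs and without overlap. Both Nlrp3 and Pttg1 also fell in HM. On GRCm38 both lie on chromosome 11, Nlrp3 at 59541568-59566956 and Pttg1 at 43420250-43426251. The part of this shared chromosome in the fall of Pttg1 was not tested. Gm8797 was at 0, 3.30, 88.8, 0 and 25.9 against 78.4, 114, 103, 70.8 and 90.1 CPM, higher in 5 of 5 pairs, though WT of 9 months reached the knockout range. It lost its call without the 6-month pair (1.60) or either APP/PS1 pair (1.71 at 3 months, 1.89 at 9 months). Fabp5 was at 37.3, 6.59, 0, 13.2 and 173 against 34.3, 34.1, 34.3, 275 and 288 CPM, higher in 4 of 5 pairs. A single cell held 9 of the 12 UMIs in Nlrp3KO of 6 months and another 15 of the 18 in Nlrp3KO of 9 months. Fabp5 lost its call without cells of a doublet score over 0.5 (1.21, adjusted p = 0.337, edgeR) and without the 3-month APP/PS1 pair (0.98), the 6-month pair (1.43) or the non-diseased 9-month pair (1.38). Gm1673 was at 31.1, 3.30, 0, 39.5 and 140 against 34.3, 34.1, 3.81, 137 and 308 CPM, higher in 5 of 5 pairs with groups that overlapped, and it lost its call without the 9-month APP/PS1 pair (1.67, adjusted p = 0.172, edgeR). Apoe was higher in 4 of 5 pairs and reached 0.88 (adjusted p = 0.0494, edgeR), below the fold required. The non-diseased 9-month pair holds the WT library that stood apart, where Apoe was lowest. In its knockout partner 1 of 102 DAM held 1136 of 1907 Apoe UMIs.

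**Figure D5:**
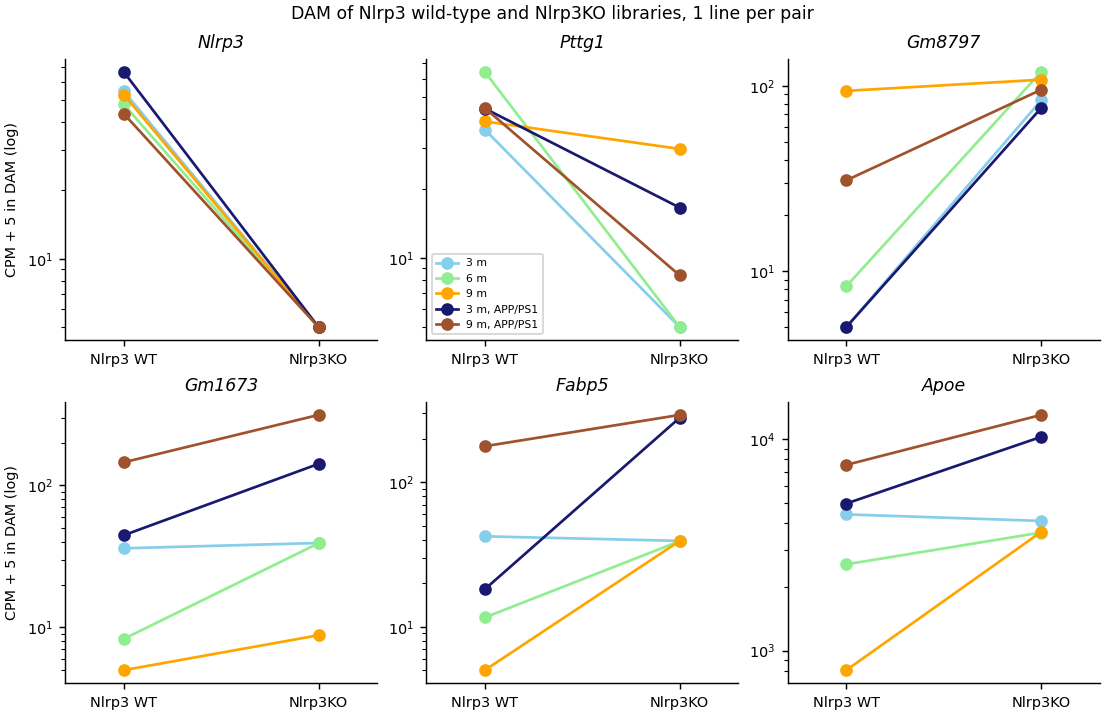
CPM plus 5 in DAM (log axis, scaled per gene) of the 5 genes called for Nlrp3 and of Apoe, with 1 line per pair of a wild-type and a knockout library and no error bars. Nlrp3 drops to 0 CPM in 5 of 5 pairs and Pttg1 is lower in 5 of 5, while Fabp5 and Apoe are higher in 4 of 5.

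Of 5 inflammasome genes tested, Nlrp3 was the only one called, and none of 3 NF-kB genes was. Pycard, the adaptor of the inflammasome, was at 360 to 501 CPM in wild-type and at 426 to 573 CPM in knockout DAM. Of 5 DAM markers, 13 late DAM genes, 21 lysosome genes and 6 MHC class II genes 0 were called, which with 0.109% of all genes called tells nothing about lists of this size. The 5 marker values all lay above 0, with a median of 0.42 beside 0.01 over all genes. Measured as DAM minus HM, 2 of 11315 genes (0.0177%) were called by edgeR, Fabp5 (2.28 ± 0.39) and Spp1 (1.76 ± 0.42, with the few cells noted above), with 618 at an unadjusted p under 0.05, and DESeq2 called 0. Apoe passed the adjusted p alone in this fit (0.64), as did Lyz2 (0.54) and Gnas (0.53), and with the annotation of all CD45+ cells Apoe was at -0.11.

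Between 3 and 9 months 108 of 5293 genes (2.04%) were called in DAM, 42 higher and 66 lower at 9 months, and this contrast is the same as that between batches. The count was 49 with DESeq2, 28 without the block for the pair and 48 without the APP/PS1 pair. Cebpb was at 105 to 363 CPM in the 3-month and at 0 to 22.4 CPM in the 9-month libraries, and Hnrnpa0 at 207 to 273 and at 41.0 to 66.6 CPM. Hnrnpa0, Ppp1r14b, Mbd2, Gbp2 and Gm47283 on the Y chromosome were among the largest declines, and Tspan9, Rad51b, Samd9l and Tsix among the largest increases. Gbp2 was not called without the Nlrp3KO pair (-0.24). Of 12 secreted factors 4 fell, and of 20 homeostatic genes 2 rose. Lpl fell by 1.02 and Ccl4 by 1.38, while Slc2a5 rose by 1.04.

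As a share of all microglia, DAM were higher with APP/PS1 in 4 of 4 pairs, by a mean of 4.45 ± 4.76 percentage points (SD), with p = 0.125 in a two-sided exact sign-flip permutation test, the smallest it can give with 4 pairs. By the annotation of all CD45+ cells the mean was 7.03 ± 7.55 points, also higher in 4 of 4 pairs (p = 0.125, same exact test). For Nlrp3KO the share was higher in 4 of 5 pairs, by 0.351 ± 0.636 points (p = 0.188, same exact test), and with the other annotation in 5 of 5, by 0.568 ± 0.424 (p = 0.0625, the smallest possible). Of DAM and TM together, DAM made up 11.2% and 11.9% in WT and Nlrp3KO of 3 months and 10.7% and 19.3% in their APP/PS1 counterparts. At 9 months the shares were 21.2% and 32.8% without and 53.3% and 50.5% with APP/PS1. The mean difference for amyloid was 14.2 ± 14.1 percentage points (SD, n = 4 pairs), higher in 3 of 4 pairs, with p = 0.25 in the same exact test. For Nlrp3KO it was 3.82 ± 6.03 points (SD, n = 5 pairs), higher in 4 of 5 pairs (p = 0.312, same exact test, smallest possible 0.0625). By the annotation of all CD45+ cells the shares were 33.3%, 27.9%, 19.6% and 50.2% at 3 months, 6.70% and 12.9% at 6 months and 26.3%, 22.6%, 47.1% and 48.8% at 9 months, in the order WT, Nlrp3KO, APP/PS1 and Nlrp3KO APP/PS1 (without the latter pair at 6 months). The mean differences were then 13.9 ± 18.6 points for amyloid, higher in 3 of 4 pairs, and 5.89 ± 14.6 points for Nlrp3KO, higher in 3 of 5 (p = 0.25 and 0.562, same exact test). A single share had an exact 95% binomial interval of, for example, 48.7% to 57.8% in APP/PS1 of 9 months and 6.95% to 15.5% in APP/PS1 of 3 months, which covers counting error only.

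The promoters of the genes that rose together were read for short motifs of factors that act in myeloid cells. RefSeq promoters on GRCm38.p6, 250 bases before to 50 after a gene's start, were found for 96 of the 124 genes, as 117 promoters. The AP-1 motif TGANTCA, the same on both strands, occurred in 7.69% of them, in 4.79% of the promoters of all tested genes and in 7.81% of all promoters. CACGTG, the E-box, occurred in 8.55%, 10.9% and 7.15%, and the PU.1-type GAGGAAGT on either strand in 5.13%, 3.87% and 3.20%. The extended E-box TCACGTG occurred in 5.13%, 7.01% and 3.77%, and the NF-kB motif GGGANTTCC in 0.855%, 2.51% and 1.68%. Cst7 and Itgax, which mark DAM and rose with amyloid, each hold 1 AP-1 match, shown in capitals within their promoters on the plus strand at chr2:150570165-150570464 and chr7:128129300-128129599. In the 19 promoters of genes that fell, AP-1 occurred in 15.8%, the E-box and the PU.1-type motif in 10.5% each. Gbp2, which fell, also holds 1 AP-1 match. Of these motifs none occurred in the 3 promoters of Apoe or in those of Ccl3, Ch25h and Gm1673. A match is only a run of letters and not a bound site.
Cst7: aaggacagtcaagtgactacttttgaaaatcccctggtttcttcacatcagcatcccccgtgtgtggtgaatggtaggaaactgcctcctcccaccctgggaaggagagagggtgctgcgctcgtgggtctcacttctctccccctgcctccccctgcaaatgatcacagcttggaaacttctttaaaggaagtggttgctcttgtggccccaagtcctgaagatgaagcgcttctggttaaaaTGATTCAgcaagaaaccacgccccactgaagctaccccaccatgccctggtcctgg
Itgax: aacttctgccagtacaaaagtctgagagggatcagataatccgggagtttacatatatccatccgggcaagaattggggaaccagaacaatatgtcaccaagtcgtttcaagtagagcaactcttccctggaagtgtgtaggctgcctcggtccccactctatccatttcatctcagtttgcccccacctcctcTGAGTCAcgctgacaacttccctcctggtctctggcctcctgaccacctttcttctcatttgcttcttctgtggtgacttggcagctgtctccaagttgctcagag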

How the data were processed

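The authors sorted CD45+ cells, prepared droplet 3' libraries, mapped reads to mm10 with STAR, counted UMIs with Cell Ranger, removed outlier cells with Seurat and Scater, and clustered after harmony correction. The deposited values are raw UMI counts per cell. The deposited annotation gives cell states, the percent of mitochondrial UMIs, the fraction of ribosomal UMIs and a doublet score, whose caller is not given in the sources used here. Of 52369 cells, 6897 in 2 conditions without a sample label were not used.

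Counts were summed over the DAM, TM or HM of each library and tested with edgeR 4.0.16 in R 4.3.3 (quasi-likelihood, filterByExpr, TMM, pair as block, Benjamini-Hochberg). A call needed an adjusted p below 0.05 and a log2 fold change beyond 1. The amyloid test used 4 pairs and the Nlrp3 test 5. Libraries are pools of mice, so replication is between pairs of libraries. The spread of each gene was moderated by that of all genes. In DAM the amyloid, Nlrp3 and interaction fits left 3, 4 and 2 residual degrees of freedom, beside prior ones of 17.5, 19.4 and 27.9. The p-values thus rest largely on a spread shared over genes, and in both DAM minus HM fits wholly so. DESeq2 1.42.0 was an alternative. DAM were described against HM and TM by the log2 ratio of (CPM + 5) for genes at a mean of at least 10 CPM. Shares of cells were compared after thinning to 1500 UMIs, which left out 0 DAM, TM or HM. Intervals and the floor of 3 counts cover counting error only. Cell doublets were not removed, and leaving out cells with a score over 0.5 was an alternative.

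Named were the 5 markers, members of the gene lists, and the 10 largest changes of each comparison, or the 5 smallest p where under 5 genes were called. The members and lists were chosen with earlier results of these data known, and the NF-kB and inflammasome lists were chosen by the study on these samples. Scripts were tested on simulated counts. Comparisons within HM and TM, the DAM minus TM test, the interaction of amyloid and age, DAM as a share of all microglia, and the states of the annotation of all CD45+ cells were added after seeing the data. Clec7a was not analysed here, and some named-gene results are not reported here.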

Additional observations from a re-analysis of the deposited data

Results flagged for a closer look

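The log2 ratio of Apoe in DAM over HM was 1.74 in the WT library of 9 months, far from the other 5 non-diseased libraries. It was the only 1 of 16 groups of libraries in which the extreme value was so far from the rest, and chance gives about 1 in 20 such groups.

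The amyloid difference in DAM differed between 9 and 3 months by an edgeR interaction test. The difference between the ages on the log2 scale was 3.44 for H2-Eb1, 3.01 for H2-Aa, 2.64 for H2-Ab1 and 2.28 for Cd74. It was 6.13 for Gbp2, 2.83 for Tap1, 2.69 for Ccl12, 2.67 for Oasl2 and 2.07 for Ifitm3. It was 5.04 for Gm1673, 3.23 for Spp1, 1.70 for Apoe and -1.39 for Ccl6. Spp1 rested on 1 to 3 cells in each non-diseased library. The ages were separate batches, so that age and batch cannot be told apart.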

How the results depend on the processing

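In DAM the amyloid count of 143 was 64 with DESeq2, 273 without the filter on low counts, 445 by adjusted p alone, 88 without the block for the pair, 56 with the annotation of all CD45+ cells, and 110 to 167 without 1 pair each. The Nlrp3 count of 5 was 2 with DESeq2, 24 without the filter, 1 without the block, 3 with DAM by both annotations, and 3 to 13 without 1 pair each, with 13 without the non-diseased 3-month pair and 3 without the 6-month or the 9-month APP/PS1 pair. The age count of 108 was 49, 193, 262 and 28 with DESeq2, without the filter, by adjusted p alone and without the block, and 48 to 131 without 1 pair each, with 48 without the APP/PS1 pair. For DAM minus HM the amyloid count of 213 was 73 with DESeq2, 648 by adjusted p alone, 83 with the annotation of all CD45+ cells, and 147 to 215 without 1 pair. The Nlrp3 count of 2 was 0, 18 and 1 under the same settings, 4 without cells of a doublet score over 0.5, 1 with DAM by both annotations, and 2 to 4 without 1 pair. There Apoe reversed to -0.11 with the annotation of all CD45+ cells. A pseudocount of 20 CPM gave 41 in place of 85 genes against HM and 16 in place of 29 against TM, and leaving out 1 library 77 to 122 and 26 to 43. The share differences ranged from 8.18 to 19.1 points for amyloid and from 1.87 to 5.47 for Nlrp3 without 1 pair each. The causes were not tested. The smallest DAM sums, 24 to 37 cells at 3 months, limit what low genes can show.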
